A study of Mus musculus with 4 samples.

Results

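Osteocalcin-high osteoblasts were picked from the single-cell profiles of tdTomato-sorted femoral cells by their own RNA. A cell was kept when at least 1% of its UMIs (unique molecular identifiers, each standing for 1 captured RNA molecule) came from the osteocalcin genes *Bglap* and *Bglap2*, at least 1% came from *Col1a1*, which encodes the main chain of type I collagen, and none came from *Ptprc*, the pan-leukocyte marker CD45. The rule found 90 osteoblasts among 9795 cells. Cells with a *Ptprc* UMI and *Col1a1* under 0.1% of UMIs, called *Ptprc*-positive below, made up 11.6 to 35.6% of each library. Because *Bglap*, *Bglap2*, *Col1a1* and *Ptprc* chose the cells, the levels of these 4 genes describe the selection and were not tested.

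All mice carried the *Cxcl12-iCreER* transgene and 1 copy of an *R26R*-tdTomato reporter, and all received tamoxifen 7 days before surgery. The marrow of the right femur was then ablated mechanically (ABL), the left femur was left unoperated as its control (CONT), and red cells were sorted from dissociated femurs 7 days later. Each condition had 2 libraries, replicate 1 made with Chromium v2 chemistry and replicate 2 with v3, so chemistry and replicate cannot be told apart. The cells of replicate 1 were pooled from several mice, per the study, so a library is not 1 animal. The Cre recombinase is driven by a *Cxcl12* transgene, so the sort takes cells that were *Cxcl12*-expressing when tamoxifen was given, with their descendants, and the growth plates were removed before digestion. The control cells carried the same alleles and the same tamoxifen, and the age of the mice is not given in the labels.

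Osteoblasts build bone by secreting type I collagen and then allowing mineral to form in it. Osteocalcin is made late in this process, and some of the cells that reach this stage become buried in the matrix as osteocytes, where *Dmp1* and *Phex* (mineralization and phosphate regulation) come on first and *Sost* (the Wnt inhibitor sclerostin) comes on later. In the mouse the osteocalcin locus holds several near-identical genes side by side, and reads from one copy can be hard to place.

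Sets of 4 values below run through the libraries as CONT then ABL for replicate 1, followed by CONT then ABL for replicate 2. Over all barcodes the libraries held 44784072, 22889380, 40486876 and 41536563 UMIs. After the filters 3419, 1438, 2397 and 2541 cells remained, with medians of 5720, 7447, 12906 and 12275 UMIs per cell. No osteoblast barcode recurred in another library.

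The promoters of *Bglap*, which the selection rests on, and of *Dmp1*, the most abundant osteocyte marker in these cells, are shown because *Bglap* is a textbook target of the bone transcription factor RUNX2. They are the 250 bases before the RefSeq start on GRCm38.p6, 5′ to 3′ on the gene's strand. Capitals mark the core letters of the RUNX motif, searched as ACCACA or TGTGGT on both strands.
Bglap, chr3:88384467-88384716, minus strand: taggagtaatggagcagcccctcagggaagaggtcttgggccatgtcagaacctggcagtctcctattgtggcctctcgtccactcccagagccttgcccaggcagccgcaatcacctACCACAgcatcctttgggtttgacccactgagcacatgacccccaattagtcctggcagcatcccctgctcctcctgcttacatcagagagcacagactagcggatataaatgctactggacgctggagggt
Dmp1, listed start 2, chr5:104202367-104202616, plus strand: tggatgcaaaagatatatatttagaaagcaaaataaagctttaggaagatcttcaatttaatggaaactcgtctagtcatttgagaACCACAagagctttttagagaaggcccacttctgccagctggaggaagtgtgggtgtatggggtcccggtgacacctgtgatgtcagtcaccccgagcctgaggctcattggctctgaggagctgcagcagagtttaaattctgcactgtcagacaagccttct
The match starts at -132 from the start of *Bglap* and at -164 from this start of *Dmp1*, whose other listed start has no match in its window. The same letters stood in 14.0% of all 32851 promoters of this length and in 9.23% of 195 promoters of genes higher in osteoblasts than in *Wif1*-positive cells, against 9.91% of 5206 promoters of all genes tested there, and it was about as common in those as in all genes tested. For the split of the osteoblasts along osteocalcin described below, it stood in 3 of 20 promoters of genes higher and in 13 of 69 (18.8%) of genes lower, against 9.63% of 2161 tested, with no test. A match is a description of letters.

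*Bglap* lies on chromosome 3 at 88383501-88384464, minus strand, with *Bglap2* at 88377736-88378699 and *Bglap3* at 88368616-88372743 (GENCODE M21, the mm10 build). The marker genes lie apart from it, *Car3* on chromosome 3 at 14863512-14872523, *Col22a1* on chromosome 15 at 71795795-72034227 and *Ifitm5* on chromosome 7 at 140948958-140950291. Each is a protein-coding gene.

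Osteoblasts made up a larger share of cells in the operated than in the unoperated femurs. They were 8 of 3419 cells (0.234%, exact binomial 95% interval 0.101 to 0.461%) in CONT replicate 1 and 38 of 1438 (2.64%, 1.88 to 3.61%) in ABL replicate 1. They were 1 of 2397 (0.0417%, 0.00106 to 0.232%) in CONT replicate 2 and 43 of 2541 (1.69%, 1.23 to 2.27%) in ABL replicate 2. The share was 2.41 percentage points higher in ABL of replicate 1 and 1.65 points higher in ABL of replicate 2, and the ranges of the conditions did not overlap. With 2 libraries a condition the smallest p an exact two-sided permutation test allows is 0.33, or 0.5 when the femurs are paired by replicate, so that test could not pass, and no model was fitted to the shares. These intervals cover counting error only, and a sort by tdTomato fixed which cells could be counted. A change in the number of osteoblasts and a change in how many were recovered cannot be told apart.

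Osteocalcin itself varied widely from cell to cell. It took a median of 14.1% of UMIs in the 8 cells of CONT replicate 1 (range 1.06 to 18.7%), 7.27% in ABL replicate 1 (1.03 to 24.2%) and 3.77% in ABL replicate 2 (1.02 to 24.0%). The single cell of CONT replicate 2 had 12.25% and held 46521 UMIs, more than any other osteoblast, where the medians of the others were 9588, 9964 and 14868. At the limit of 1%, the lowest cells kept had 1.06, 1.03, 12.25 and 1.02% and the highest collagen-rich cells left out had 0.256, 0.739, 0.742 and 0.904%. The median *Col1a1* share was 9.17, 12.6, 2.96 and 10.6%. Together the genes of the rule and the third copy, *Bglap3*, took between 15.4 and 23.2% of all osteoblast UMIs.

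**Figure D1:**
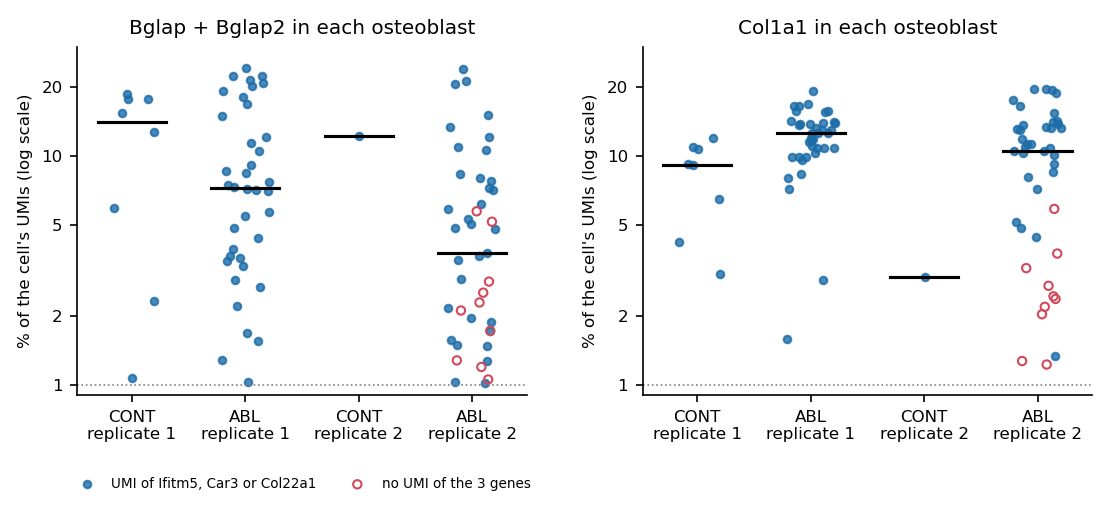
Osteocalcin (*Bglap* + *Bglap2*, left) and *Col1a1* (right) as a percent of UMIs in each osteoblast, on a log scale, by library; black bars are medians, the dotted line is the limit of 1%, and open circles are cells with no UMI of *Ifitm5*, *Car3* or *Col22a1*. The 10 open circles lie all in ABL replicate 2, with osteocalcin between 1.05 and 5.73%.

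The label of osteoblast was checked on 3 markers that the rule does not use, which were themselves picked with earlier results of these cells known. *Ifitm5*, a small bone-restricted membrane protein, was at 687, 603, 236.5 and 562 CPM (UMIs of the gene scaled to a common total over the summed cells). *Car3*, carbonic anhydrase 3, was at 1870, 1345, 752 and 1500 CPM, and *Col22a1*, a fibril-associated collagen, at 372, 475, 150.5 and 407 CPM. All 3 were lowest in the single cell of CONT replicate 2. The median mitochondrial share of osteoblasts was 3.69, 3.44, 5.31 and 5.13% of UMIs. After each cell was thinned to 2000 UMIs, *Ifitm5* was seen in 57.9% of osteoblasts of ABL replicate 1 and 46.5% of ABL replicate 2, against 0.240% and 0% of *Ptprc*-positive cells. *Car3* was seen in 76.3 and 55.8%, against 1.20 and 0.377%, and *Col22a1* in 68.4 and 51.2%, against 0.481 and 0.377%. The median depth was 9964 and 14868 UMIs in the osteoblasts and 7031 and 10448 in the *Ptprc*-positive cells. That class leaves out cells with *Col1a1* at 0.1% of UMIs or more, so it was in part chosen to lack bone RNA.

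Osteocyte markers were present only in part. *Dmp1* was at 428, 733, 43.0 and 586 CPM and *Phex* at 203, 327, 21.5 and 292 CPM. *Sost* and *Fgf23*, a phosphate-lowering hormone of osteocytes, had 0 UMIs in every library, which at this depth allows up to 6.96 CPM in ABL replicate 1 and 4.36 CPM in ABL replicate 2 (3 counts). *Mepe*, a matrix phosphoglycoprotein, had 2 UMIs in 1 cell of CONT replicate 1 and none elsewhere.

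RNA of other cell types was also measured. The 5 reticular markers summed to 315, 422, 64.5 and 69.8 CPM, led by *Cxcl12* at 236.5, 304, 64.5 and 42.2 CPM, whereas *Cxcl12* stood at 5311, 5467, 11010 and 1946 CPM in droplets of at most 300 UMIs, which hold free RNA. *Adipoq*, *Lepr*, *Kitl* and *Ebf3* were at 0 in the cell of CONT replicate 2, and *Ebf3* in ABL replicate 2. The 5 neutrophil markers summed to 5598, 4286, 2021 and 71.3 CPM and the 5 erythroid markers to 7174, 4028, 279 and 27.6 CPM. Both were far lower in replicate 2, as they were in empty droplets (neutrophil markers 110196, 73868, 16817 and 10646 CPM). Their part in the results was not tested.

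The remaining marker lists were low with 1 exception. Endothelial markers summed to 135, 2.32, 0 and 0 CPM, B-lineage markers to 11.3, 18.6, 0 and 0 CPM, macrophage markers to 315, 318, 0 and 17.5 CPM and cycling markers to 33.8, 53.3, 43.0 and 7.27 CPM. *Mki67*, which marks dividing cells, had 4 UMIs in all osteoblasts, all in ABL replicate 1. Osteoclast markers summed to 124, 227, 86.0 and 294 CPM, mostly from *Ctsk*. The exception was the chondrocyte list, which summed to 2985, 97.4, 709 and 583 CPM. *Col2a1*, the cartilage collagen, gave 2973, 74.2, 709 and 378 CPM of it. *Acan*, *Sox9* and *Matn3* were at 0 in both CONT libraries and *Matn3* was at 0 in all 4, and *Acan* and *Sox9* had UMIs in both ABL libraries. The part of cartilage RNA in the results was not tested.

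The sort marker was recovered in most osteoblasts. A UMI of the reporter (feature tdT-WPRE_trans) was found in 7 of 8, 36 of 38, 1 of 1 and 36 of 43 cells. After thinning it was in 84.2 and 58.1% of osteoblasts of ABL replicate 1 and ABL replicate 2, and in 18.5 and 40.9% of *Ptprc*-positive cells. The gap between the classes was narrower in ABL replicate 2.

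To see which genes set the osteoblasts apart, their summed UMIs in each ABL library were compared with those of 3 other *Ptprc*-negative classes of the same library. These were *Wif1*-positive cells (at least 2 UMIs of *Wif1*, a Wnt inhibitor), with 84 and 328 cells, reticular cells (*Cxcl12* at least 0.5% of UMIs), with 377 and 274 cells, and other collagen-high cells (*Col1a1* at least 1%), with 43 and 638 cells. The genes that chose the classes, and *Bglap3*, were left out of the calls. The *Wif1*-positive class was mixed and differed between ABL replicate 1 and ABL replicate 2. Its chondrocyte markers summed to 100 and 7123 CPM, its reticular markers to 5951 and 1461 CPM and its erythroid markers to 15457 and 1412 CPM. The part of this mixture in the differences from that class was not tested. The test was edgeR's quasi-likelihood test with Benjamini-Hochberg adjustment over all genes tested and the library as a block. Every fit had 4 sums and 1 residual degree of freedom. The test pools each gene's spread with that of other genes, so p-values rest mostly on the pooled spread. A small p therefore does not show that a gene behaved alike in the 2 libraries. A log2 fold change is after TMM scaling and so differs from the ratio of the CPM values. CONT osteoblasts were too few for a fit against ABL osteoblasts.

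Against *Wif1*-positive cells 561 of 6751 genes (8.31%) passed an adjusted p of 0.05, 274 higher (4.06%) and 287 lower (4.25%) in osteoblasts. Against reticular cells 1834 of 9054 (20.3%) passed, 807 higher (8.91%) and 1027 lower (11.3%). Against other collagen-high cells 701 of 5715 (12.3%) passed, 327 higher (5.72%) and 374 lower (6.54%). Without TMM scaling the split moved to 152 higher and 784 lower, 433 and 2767, and 196 and 1068, and the median of all genes moved to -0.54, -0.69 and -0.51 on the log2 scale, so changes below are relative to the bulk of the genes. DESeq2 gave 141 higher and 115 lower against *Wif1*-positive cells and 721 and 554 against reticular cells. It gave fewer calls than the main fit against other collagen-high cells too. Without the library block no gene passed against *Wif1*-positive or other collagen-high cells (652 and 747 had an unadjusted p under 0.05), and 407 higher and 484 lower passed against reticular cells.

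A fit of all 4 classes together gave 109 higher and 69 lower genes against *Wif1*-positive cells, 590 and 657 against reticular cells, and 187 and 156 against other collagen-high cells. In that fit, leaving out the osteoblasts of ABL replicate 1 left 9 higher and 2 lower genes against *Wif1*-positive cells, and leaving out those of ABL replicate 2 left 0 and 0. Against other collagen-high cells 25 and 11, and 1 and 0, were left, and against reticular cells 143 and 147, and 137 and 112.

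**Figure D2:**
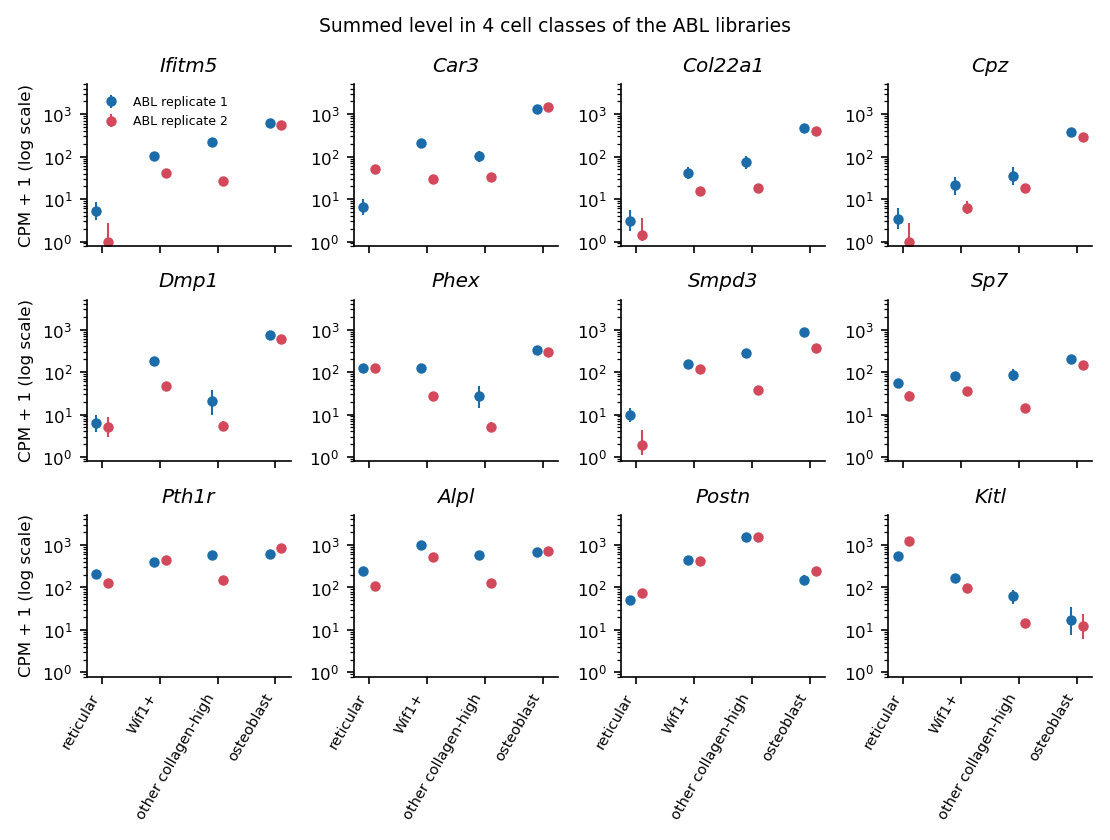
Summed level (CPM + 1, log scale) of 12 genes in reticular, *Wif1*-positive, other collagen-high cells and osteoblasts of ABL replicate 1 (blue) and ABL replicate 2 (red); bars are exact Poisson 95% intervals, counting error only. *Ifitm5*, *Car3*, *Col22a1*, *Cpz* and *Dmp1* are highest in the osteoblasts of both libraries, whereas *Kitl* is highest in reticular cells.

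Among the 10 largest rises over *Wif1*-positive cells were *Cpz* and the bone markers *Car3*, *Col22a1* and *Ifitm5*. *Cpz*, carboxypeptidase Z, stood at 390 CPM in osteoblasts against 20.3 in *Wif1*-positive cells of ABL replicate 1 and at 297 against 5.31 in ABL replicate 2, a log2 fold change of 5.61 ± 0.42 (SE, adjusted p = 4.1e-05). *Car3* stood at 1345 against 204 and at 1500 against 28.2 CPM (4.75 ± 0.61). *Col22a1* stood at 475 against 40.6 and at 407 against 14.9 CPM (4.72 ± 0.38). *Ifitm5* stood at 603 against 101 and at 562 against 41.0 CPM (3.71 ± 0.36). Every osteoblast value lay above every value of the *Wif1*-positive cells for these 4 genes. *Entpd3*, *Lipc*, *Prss35*, *Col13a1*, *Insc* and *Col11a2* complete these 10. *Col11a2*, a fibrillar collagen chain, stood at 2776 against 94.2 and at 1702 against 397 CPM (3.96 ± 0.61). The largest falls were *Col9a2*, *Tmem86a*, *S100b*, *Limch1* and *Fbln5*. *Col9a2*, a cartilage collagen chain, rests on ABL replicate 2, at 6.96 against 13.1 CPM in ABL replicate 1 and at 1.46 against 198 in ABL replicate 2. *Fbln5*, an elastic-fibre protein, stood at 23.2 against 675 and at 4.36 against 104 CPM (-4.20 ± 0.40).

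Of 27 measured bone matrix genes 12 rose, 2 fell and 13 were not called against *Wif1*-positive cells. Their median log2 fold change was 0.60, against 0.00 over all genes tested, of which 4.06% rose and 4.25% fell. *Col1a2*, the partner chain of *Col1a1*, stood at 75035 CPM against 7237 in ABL replicate 1 and at 71049 against 20795 in ABL replicate 2 (3.10 ± 0.41). *Sparc*, the collagen- and calcium-binding osteonectin, stood at 32631 against 5170 and at 42282 against 22108 CPM (2.32 ± 0.42). *Serpinf1*, whose loss causes a brittle bone disease, rose by 2.84 ± 0.42. *Ibsp*, bone sialoprotein, was called only narrowly, at 4017 against 3973 and at 10626 against 4392 CPM (1.17 ± 0.32, adjusted p = 0.0475), and its sign turned when the osteoblasts of ABL replicate 2 were left out. *Spp1*, osteopontin, stood at 3873 against 11255 and at 4156 against 6036 CPM and did not pass (-0.51 ± 0.30, adjusted p = 0.403). *Tnc*, tenascin C, fell (-1.73 ± 0.31).

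Against reticular cells 21 of 26 matrix genes rose and 2 fell, *Mgp* and *Tnc*. Their median was 3.01, against -0.07 over all genes tested, of which 8.91% rose and 11.3% fell. Against other collagen-high cells 12 of 27 rose and 6 fell (5.72 and 6.54% of all genes), with a median of 1.08. There *Col1a2* rose by 2.40 ± 0.12 and *Sparc* by 1.91 ± 0.12, while *Postn*, the periosteal matrix protein periostin, fell by 2.49 ± 0.22, from 1528 to 153 CPM in ABL replicate 1 and from 1536 to 237 CPM in ABL replicate 2. *Mgp*, *Fn1*, *Fmod*, *Tnc* and *Itga5* fell with it.

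Mineralization genes rose in all 3 comparisons in part. Against *Wif1*-positive cells 7 of 19 measured members rose and 2 fell (median 0.47), where 4.06 and 4.25% of all genes did. Against reticular cells 10 of 19 rose and 3 fell (median 1.08), where 8.91 and 11.3% of all genes did. Against other collagen-high cells 10 of 17 rose and 3 fell (median 1.87), where 5.72 and 6.54% of all genes did. *Dmp1*, *Car3*, *Car12*, *Smpd3*, *Slc36a2*, *Phex* and *Fam20c* were called higher in each. Of these *Dmp1*, *Car3*, *Slc36a2* and *Phex* are also in the late list below, and *Dmp1* is in the matrix list. The lists overlap, so their counts are not independent. *Smpd3*, a sphingomyelinase needed for mineralization, stood at 893 against 155 and at 372 against 117 CPM in *Wif1*-positive cells (2.61 ± 0.35). *Alpl*, the alkaline phosphatase that frees phosphate, did not pass there (0.47 ± 0.31, adjusted p = 0.468, at 668 against 986 and at 725 against 532 CPM) but rose against other collagen-high cells (1.87 ± 0.46, adjusted p = 0.0325). *Enpp1*, which makes the mineralization inhibitor pyrophosphate, fell against *Wif1*-positive cells, at 20.9 against 62.0 and at 30.6 against 211 CPM (-1.84 ± 0.41), but DESeq2 did not call it.

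The late osteoblast and osteocyte list gave 9 higher and 0 lower of 18 measured against *Wif1*-positive cells (median 1.70), 15 higher and 1 lower of 19 against reticular cells (2.80) and 8 higher and 1 lower of 17 against other collagen-high cells (1.06). In the same order 4.06, 8.91 and 5.72% of all genes were higher and 4.25, 11.3 and 6.54% lower. The late list holds the markers named above, shares *Col22a1* and *Dmp1* with the matrix list, and was set with earlier results of these cells known. *Dmp1* stood at 733 CPM against 178 in *Wif1*-positive cells, 5.32 in reticular cells and 19.6 in other collagen-high cells of ABL replicate 1. In ABL replicate 2 it stood at 586 against 45.5, 4.16 and 4.49 CPM. The fold changes were 3.40 ± 0.40, 7.72 ± 0.40 and 6.90 ± 0.42 on the log2 scale (adjusted p = 0.000487, 5.05e-07 and 8.5e-05). The level was uneven between cells. Without the 5 cells richest in *Dmp1* the other 33 osteoblasts of ABL replicate 1 stood at 212 CPM, near the 178 CPM of all *Wif1*-positive cells there, and the other 38 of ABL replicate 2 stood at 147 CPM. *Phex* rose by 2.99 ± 0.43 against *Wif1*-positive cells (adjusted p = 0.0014) and by 5.73 ± 0.53 against other collagen-high cells, at 327 against 26.1 and at 292 against 4.10 CPM.

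**Figure D3:**
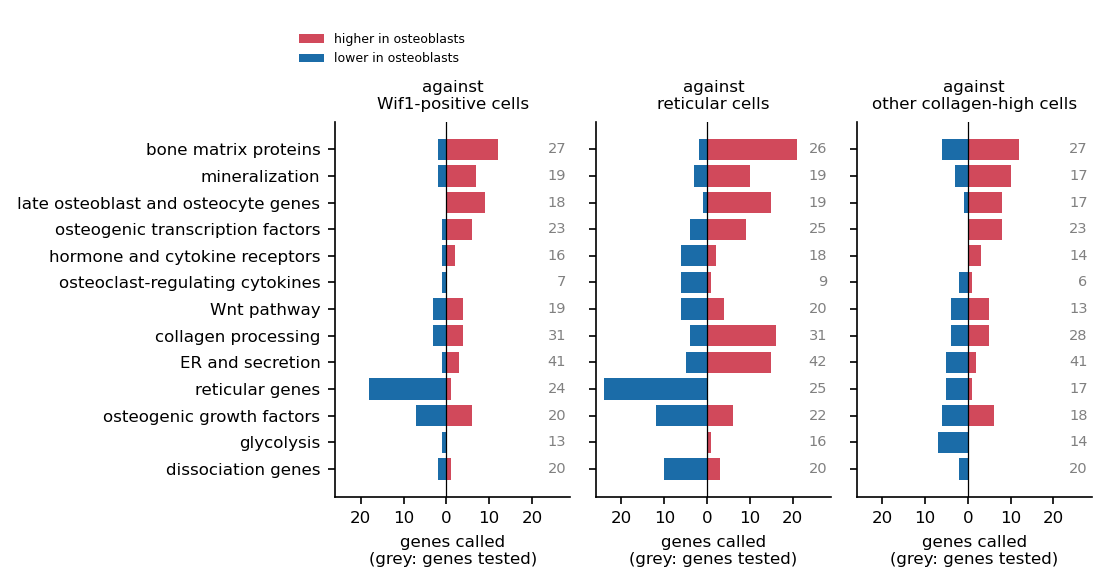
Number of genes of each list called higher (red, to the right) or lower (blue, to the left) in osteoblasts against each of the 3 classes, with the number tested in grey. Of the late osteoblast and osteocyte genes 9 of 18, 15 of 19 and 8 of 17 were higher, whereas of the reticular genes 18 of 24, 24 of 25 and 5 of 17 were lower.

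Transcription factors of the lineage were higher in part. Of 23 measured 6 rose and 1 fell against *Wif1*-positive cells, where 4.06 and 4.25% of all genes did. Against reticular cells 9 of 25 rose and 4 fell (8.91 and 11.3% of all genes). Against other collagen-high cells 8 of 23 rose and 0 fell (5.72 and 6.54% of all genes). *Sp7* (osterix, required for osteoblast formation) stood at 206 against 78.7 and at 143 against 34.1 CPM in *Wif1*-positive cells (2.26 ± 0.31, adjusted p = 0.00115). It rose by 2.78 ± 0.28 against reticular and by 2.96 ± 0.45 against other collagen-high cells. *Dlx3* and *Mef2c*, which act in osteoblast maturation, rose in all 3 (3.18 and 2.12 against *Wif1*-positive cells). *Runx2*, the master regulator of the lineage, stood at 142 against 212 and at 116 against 79.0 CPM and was not called (0.52 ± 0.33, adjusted p = 0.434). *Id1*, a BMP-induced inhibitor of differentiation, fell, at 18.6 against 81.1 and at 24.7 against 196 CPM (-2.16 ± 0.39). *Vdr*, the vitamin D receptor, rose against other collagen-high cells, at 99.7 against 43.5 and at 52.4 against 5.27 CPM (2.88 ± 0.46).

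Receptors of hormones and cytokines were called in both directions. Of those measured 2 of 16, 2 of 18 and 3 of 14 rose and 1, 6 and 0 fell against *Wif1*-positive, reticular and other collagen-high cells. As shares these are 12.5, 11.1 and 21.4% higher and 6.25, 33.3 and 0% lower, against 4.06, 8.91 and 5.72% higher and 4.25, 11.3 and 6.54% lower over all genes tested. The counts are of 6 genes at most. *Pth1r*, the parathyroid hormone receptor, stood at 631 against 392 and at 837 against 451 CPM in *Wif1*-positive cells (1.31 ± 0.29, adjusted p = 0.0161) and at 631 against 206 and 837 against 125 CPM in reticular cells (2.81 ± 0.35). *Lepr*, the leptin receptor that marks reticular stroma, fell by 1.77 ± 0.36 and by 4.34 ± 0.43, the first of which DESeq2 did not call.

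Signals to osteoclasts were mainly lower than in reticular cells. *Tnfsf11* (RANKL, the cytokine that drives osteoclast formation) stood at 23.2 CPM against 523 in reticular cells of ABL replicate 1 and at 18.9 against 412 in ABL replicate 2 (-3.84 ± 0.34, adjusted p = 1.1e-05). Against *Wif1*-positive cells it fell by 1.83 ± 0.42, at 23.2 against 219.5 and 18.9 against 52.7 CPM, which DESeq2 did not call. *Csf1*, the macrophage growth factor, fell by 2.18 ± 0.38 against reticular cells, and *Tnfrsf11b*, the decoy receptor of RANKL, rose by 2.80 ± 0.58. Of 9 measured members of this list 6 fell and 1 rose against reticular cells, where 11.3 and 8.91% of all genes did. Against *Wif1*-positive cells 1 of 7 fell and 0 rose (4.25 and 4.06% of all genes). Against other collagen-high cells 2 of 6 fell and 1 rose (6.54 and 5.72% of all genes).

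Wnt and growth factor genes went both ways. Of 19 measured Wnt genes 4 rose and 3 fell against *Wif1*-positive cells, 4 of 20 rose and 6 fell against reticular cells, and 5 of 13 rose and 4 fell against other collagen-high cells. The shares were 21.1% higher and 15.8% lower against *Wif1*-positive cells (4.06 and 4.25% of all genes) and 38.5% higher and 30.8% lower against other collagen-high cells (5.72 and 6.54%), and for reticular cells the shares of all genes were 8.91 and 11.3%. *Lrp5*, a Wnt co-receptor, stood at 71.9 against 39.4 and at 53.8 against 24.1 CPM in *Wif1*-positive cells (1.54 ± 0.31), a rise that DESeq2 did not call. *Dkk1*, a secreted Wnt inhibitor of mature bone cells, stood at 37.1 CPM against 0 in ABL replicate 1, at least 10.4-fold higher (3 counts as the floor in that library), and at 14.6 against 0.82 CPM in ABL replicate 2. *Sfrp2*, an inhibitor made by stroma, fell in all 3, at 4.64 and 5.82 CPM in osteoblasts against 94.2 and 35.7 CPM in *Wif1*-positive cells. Of 20 growth factor genes 6 rose and 7 fell against *Wif1*-positive cells, where 4.06 and 4.25% of all genes did. Against reticular cells 6 of 22 rose and 12 fell (8.91 and 11.3% of all genes). Against other collagen-high cells 6 of 18 rose and 6 fell (5.72 and 6.54% of all genes). *Bmp3*, a member of the BMP family, rose, at 125 against 33.4 and at 127 against 9.59 CPM (3.41 ± 0.42), while *Igf1* fell, at 18.6 against 210 and at 5.82 against 277 CPM (-3.94 ± 0.50). *Grem1*, a BMP antagonist, was at 4.64 against 180 and 2.91 against 42.1 CPM and was called lower. Against *Wif1*-positive cells the BMP genes called were all higher (*Bmp3*, *Bmp8a*, *Bmp4* and *Bmp2*) and the IGF genes called all lower (*Igf1*, *Igfbp4* and *Igfbp5*), and *Tgfb1* was higher. *Bmp1*, also higher, encodes a procollagen protease despite its name and is in the collagen-processing list too. DESeq2 called *Bmp3* and the 3 IGF genes, but none of *Bmp8a*, *Bmp4*, *Bmp2*, *Bmp1* and *Tgfb1* (adjusted p from 0.0527 to 0.504).

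The reticular program was low beside *Wif1*-positive and reticular cells. Of 24 measured reticular genes 18 fell and 1 rose against *Wif1*-positive cells (median -2.59). Against reticular cells 24 of 25 fell (median -5.21). Against other collagen-high cells 5 of 17 fell, 1 rose and 11 were not called (median -0.83). In the same order 4.25, 11.3 and 6.54% of all genes fell and 4.06, 8.91 and 5.72% rose. *Cxcl12* was lower than in *Wif1*-positive cells by 3.80 ± 0.36, at 304 against 4801 and at 42.2 against 1139 CPM. *Kitl*, stem cell factor, stood at 16.2 against 165 and at 11.6 against 94.3 CPM (-2.65 ± 0.38). Against reticular cells *Kitl* fell by 5.40 ± 0.47. *Fst*, the activin antagonist follistatin, stood at 4.64 against 413 CPM in ABL replicate 1, and in ABL replicate 2 it had 0 UMIs against 495 CPM, at least 113-fold lower. *Iigp1*, an interferon-induced GTPase, had 0 UMIs in the osteoblasts of both libraries, at least 10.2- and 45.7-fold lower than in reticular cells. The reticular list was used to name those cells' program and *Cxcl12* chose that class.

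The 10 largest rises over reticular cells were *Col22a1*, *Slc13a5*, *Col13a1*, *Ifitm5*, *Cpz*, *Prss35*, *Lipc*, *Col11a2*, *Smpd3* and *Dmp1*. *Ifitm5* had 0 UMIs in reticular cells of ABL replicate 2 and stood at 562 CPM in osteoblasts, at least 405-fold higher, and *Cpz* was at least 214-fold higher there. *Slc13a5*, a citrate transporter of the cell membrane, stood at 165 against 0.71 CPM in ABL replicate 1 and was at least 65.0-fold higher in ABL replicate 2. Of the 10 largest rises over other collagen-high cells, *Lipc*, *Ptprz1*, *Dapk2* and *Insc* stood beside *Dmp1*, *Phex*, *Car3*, *Bmp3*, *Cpz* and *Col22a1*. The largest falls there were *Tagln*, *Mfap5*, *Meg3*, *Apod* and *Col14a1*. *Tagln*, a smooth muscle and myofibroblast protein, had 0 UMIs in the osteoblasts of both libraries, at least 33.2- and 8.61-fold lower. *Mfap5*, a microfibril protein, stood at 0 against 178.5 and at 1.46 against 326 CPM.

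Secretory machinery had most of its calls against reticular cells. Collagen-processing genes rose in 16 of 31 there with 4 falling, where 8.91 and 11.3% of all genes did. Against *Wif1*-positive cells 4 of 31 rose and 3 fell (4.06 and 4.25% of all genes). Against other collagen-high cells 5 of 28 rose and 4 fell (5.72 and 6.54% of all genes). *Serpinh1*, the collagen chaperone HSP47, stood at 2189 against 1360 and at 2478 against 1177 CPM in reticular cells (1.51 ± 0.30, adjusted p = 0.00358). *Lox* and *Loxl4*, which cross-link collagen, rose by 2.30 ± 0.32 and 3.34 ± 0.45 against *Wif1*-positive cells. Genes of the endoplasmic reticulum and secretion rose in 15 of 42 against reticular cells (35.7%, against 8.91% of all genes) and fell in 5 (11.9 against 11.3%). Against *Wif1*-positive cells 3 of 41 rose and 1 fell (7.32 and 2.44%, against 4.06 and 4.25%), and against other collagen-high cells 2 of 41 rose and 5 fell (4.88 and 12.2%, against 5.72 and 6.54%). The chaperones *Hspa5* and *Hsp90b1* fell there (-0.87 ± 0.20 and -0.94 ± 0.20).

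Glycolysis genes were lower than in other collagen-high cells, where 7 of 14 fell and 0 rose (median -0.88). Of all genes 6.54% fell and 5.72% rose there. *Gapdh* stood at 176 against 633 CPM in ABL replicate 1 and at 287 against 942 in ABL replicate 2 (-1.28 ± 0.20, adjusted p = 0.00434), and *Pgk1* fell by 2.26 ± 0.41. Against *Wif1*-positive cells 1 of 13 fell (4.25% of all genes) and against reticular cells 1 of 16 rose (8.91% of all genes). Cycling markers fell in 4 of 5 against both other collagen-high and *Wif1*-positive cells (6.54 and 4.25% of all genes). *Mki67* stood at 9.28 against 48.9 CPM and at 0 against 32.7 CPM in *Wif1*-positive cells, at least 7.48-fold lower in ABL replicate 2. Genes induced by tissue dissociation gave 1 higher and 2 lower of 20 against *Wif1*-positive cells, 3 and 10 of 20 against reticular cells, and 0 and 2 of 20 against other collagen-high cells. The share lower than in reticular cells was 50.0%, against 11.3% of all genes, and the other 5 counts are of 3 genes or fewer, where 4.06 to 8.91% of all genes were called. Among markers of other cell types, 3 erythroid genes and *Mmp9* were called lower than in *Wif1*-positive cells. *Acan*, *Col2a1* and *Acp5* were called higher and *Mmp9* lower than in reticular cells, and *Acan* was called lower than in other collagen-high cells. The 5 neutrophil markers were tested in all 3 comparisons and 0 were called. Of 5 monocyte and macrophage markers only 1, 2 and 1 had counts enough for the test and 0 were called, of 5 endothelial markers 0, 1 and 0 did, and of the B-lineage markers none did, so these lists went largely untested.

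Genes were next followed along osteocalcin within the osteoblasts. The cells of each ABL library were split at the median osteocalcin share, and 111 of 2798 genes (3.97%) passed an adjusted p of 0.05, 28 higher (1.0%) and 83 lower (2.97%) in the cells above the median. The 4 genes of the rule and *Bglap3* were left out. DESeq2 called 0 higher and 8 lower, so the rises are the less certain. Without TMM scaling the split was 9 higher and 206 lower. Without the library block 0 genes were called in either direction (115 at an unadjusted p under 0.05), with an osteocalcin minimum of 2% 0 higher and 2 lower, and with the study's cell filter alone 0 higher and 5 lower, so the calls along osteocalcin depend on the settings.

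*Car3* rose with osteocalcin, at 1502 CPM above the median against 1164 below it in ABL replicate 1 and at 2042 against 824 in ABL replicate 2 (1.16 ± 0.19). *Thbs1*, thrombospondin 1, stood at 974 against 315 and at 509 against 343 CPM (1.40 ± 0.24). *Cpz* rose by 1.14 ± 0.27, *Serpinf1* by 0.63 ± 0.17 and *Sparc* by 0.39 ± 0.12. *Mlip* (1.74 ± 0.41), *Tbx2*, *Nav1*, *Chn1*, *Gnai1*, *Cadm1* and *Dapk2* complete the 10 largest rises.

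The falls were larger. *Mmp13*, collagenase 3, stood at 164.5 against 639.5 CPM and at 241 against 3478 CPM (-2.71 ± 0.23). *Postn* stood at 39.0 against 285 and at 62.9 against 454 CPM (-2.55 ± 0.34), *Serpine2*, a protease inhibitor, at 229 against 929 and at 173 against 709 CPM (-1.71 ± 0.25), and *Pdgfa*, a growth factor for mesenchymal cells, at 43.3 against 360 and at 26.2 against 183 CPM (-2.60 ± 0.36). These 4 were also called by DESeq2, with *Pdpn*, *Comp*, *Plpp1* and *Wif1*, although *Pdpn* turned from -3.17 to 0.29 with the study's cell filter alone. In ABL replicate 2 the fall of *Postn* sat in a few cells. Of its 139 UMIs below the median 122 were in 8 cells with no UMI of *Ifitm5*, *Car3* or *Col22a1* (described further on), 66 of them in 1 cell, and without such cells *Postn* stood at 65.3 against 79.2 CPM. *Mmp13* was also far higher in those cells than in the others of that library. *Plpp1*, a lipid phosphatase, fell most (8.66 against 335 and 2.62 against 170 CPM), but it had UMIs in only 5 of 38 and 10 of 43 cells. *Comp*, a cartilage and tendon matrix protein, stood at 8.66 against 25.0 and at 204 against 2550 CPM, so its size rests on ABL replicate 2.

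More osteocyte-stage genes fell than rose with osteocalcin. Over all genes tested 1.0% were higher, 2.97% were lower and the median was 0.03. Of 15 measured late osteoblast and osteocyte genes 1 rose and 7 fell, with a median of -0.90. Those lower were *Pdpn*, *Cd44*, *Dmp1*, *Ackr3*, *Fbln7*, *Phex* and *Mmp14*. In ABL replicate 2 *Fbln7* stood at 124 CPM in the cells with no UMI of the 3 late markers against 12.0 in the others, and *Cd44* at 257 against 60.1, and 8 of those 10 cells lie below the median. In ABL replicate 1 a single cell held 8 of the 9 *Fbln7* UMIs. *Dmp1* stood at 524 against 974 and at 218 against 1046 CPM (-1.26 ± 0.23), and *Phex* at 182 against 495 and at 202 against 405 CPM (-0.90 ± 0.27). DESeq2 called neither, and *Phex* turned to 0.22 with the study's cell filter alone. The *Dmp1* UMIs sat in few cells, a check made after the values were seen. There 1 cell held 103 of the 195 below the median in ABL replicate 1 and 2 cells held 265 of the 320 in ABL replicate 2. Without the 2 richest cells on each side of the median *Dmp1* stood at 210 against 339 and at 139 against 207 CPM, and the levels of *Phex* were 126 against 174 and 157 against 121 CPM, so the *Phex* difference changed sign in ABL replicate 2. The fall of *Dmp1* thus kept its direction in both libraries, and its size in ABL replicate 2 rests mainly on 2 cells. *Spp1* was called lower (-0.63 ± 0.17), yet it stood at 1545 against 6559 CPM in ABL replicate 1 and at 4360 against 3903 in ABL replicate 2, and the libraries went opposite ways. Matrix genes were split, with 6 of 26 higher (*Col11a1*, *Thbs1*, *Col1a2*, *Serpinf1*, *Col11a2* and *Sparc*) and 7 lower (*Postn*, *Cd44*, *Fmod*, *Dmp1*, *Ibsp*, *Tnc* and *Spp1*). The shares of all genes were 1.0% higher and 2.97% lower.

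As a description over single cells, Spearman's rho with the osteocalcin share was computed for 3699 genes. The genes of the rule and *Bglap3* were first taken out of each cell's total. *Sparc* ranked highest, at 0.51 over 38 cells and 0.44 over 43 cells, followed by *Serpinf1* (0.44 and 0.50), *Cpz* (0.30 and 0.51), *Col11a1*, *Cpe*, *Crtap*, *Uqcrq*, *Mlip*, *Scfd1* and *Bmp1*. *Postn* stood near the other end, at -0.39 and -0.42. The cells of a library share its depth, and total UMIs themselves had a rho of 0.27 and 0.25 with the osteocalcin share.

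All *Ptprc*-negative cells with *Col1a1* at or above 1% were also binned by osteocalcin, as a description. The 3 bins above 1% hold the osteoblasts already split at the median, and the 2 bins below it hold cells outside the rule. In ABL replicate 1 *Car3* went from 93.0 CPM below 0.1% osteocalcin through 512, 997 and 1377 to 1432 CPM above 10%. In ABL replicate 2 it went from 14.8 through 199, 633 and 1807 to 2422 CPM. *Postn* went down, from 1268 to 47.0 CPM and from 1314 to 6.21 CPM. *Dmp1* did not follow a single direction, at 15.9, 446, 507, 972 and 534 CPM in ABL replicate 1. In ABL replicate 2 it stood at 13.5, 64.8, 1133, 252 and 236 CPM. These tops in the middle of the range rest on few cells. In the top bin of ABL replicate 1 a single cell held 103 *Dmp1* UMIs. In that of ABL replicate 2 the 2 richest cells held 191 and 74, so the place of the top is uncertain. The bins held 39, 18, 7, 18 and 13 cells in ABL replicate 1 and 765, 75, 19, 16 and 8 cells in ABL replicate 2, so every bin above 1% holds under 20 cells.

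**Figure D4:**
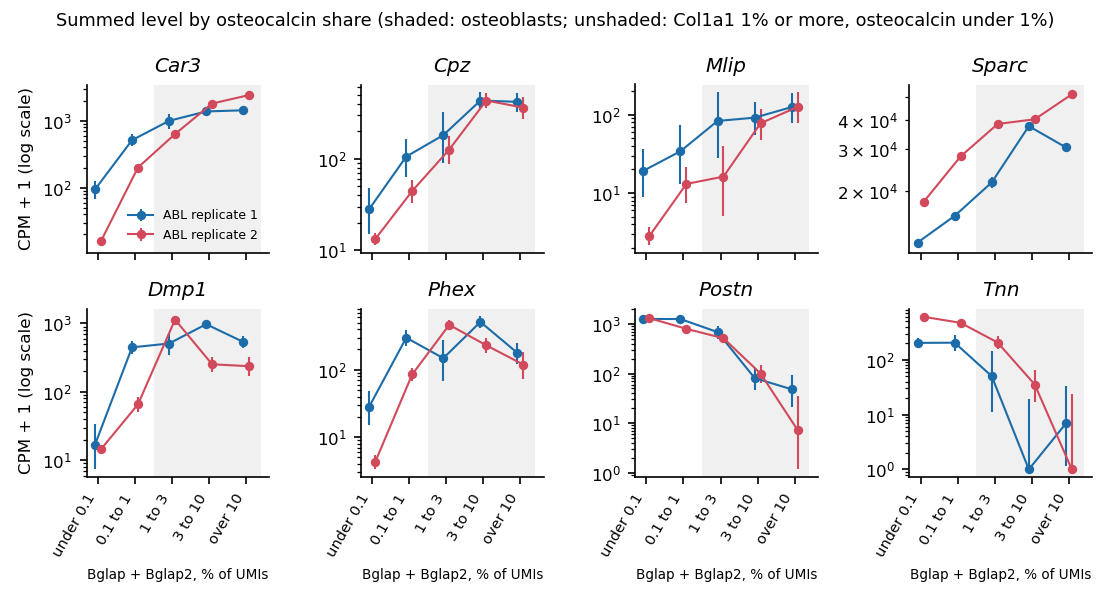
Summed level (CPM + 1, log scale) of 8 genes in *Col1a1*-high, *Ptprc*-negative cells binned by osteocalcin share (percent of UMIs), in ABL replicate 1 (blue) and ABL replicate 2 (red); bars are exact Poisson 95% intervals and the shaded bins are the osteoblasts. *Car3* and *Cpz* climb into the shaded bins and *Postn* and *Tnn* drop. *Dmp1* is highest at 972 CPM in the bin of 3 to 10% in ABL replicate 1, where 1 cell held 103 UMIs. In ABL replicate 2 it is highest at 1133 CPM in the bin of 1 to 3%, where 2 cells held 191 and 74 UMIs.

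*Dmp1* was carried by few cells. It had a UMI in 17 of 38 and 21 of 43 osteoblasts, and the 5 richest cells held 77.5 and 79.2% of its UMIs, with up to 103 and 191 UMIs in 1 cell. For *Col22a1* the 5 richest cells held 33.2 and 30.4% and for *Car3* 38.3 and 47.0%, so these were spread more evenly. *Phex* was in between, at 70.2 and 65.7%. The sums of *Dmp1* above therefore rest mainly on 5 cells a library.

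The 5 cells richest in *Dmp1* per UMI, which held 75.3 and 78.2% of its UMIs, were set beside the others with no test, because *Dmp1* chose them. *Phex* stood at 834 CPM in them against 239 in the other osteoblasts of ABL replicate 1 and at 863 against 210 in ABL replicate 2. In each library 1 cell carried most of this, with 45 of 53 and 56 of 75 *Phex* UMIs, and the other 4 cells stood at 180 and 309 CPM. *Plpp1* had UMIs in 2 of the 5 cells of each library (613 against 81.6 and 345 against 38.3 CPM), and the 39 UMIs of *Pdpn*, the early osteocyte membrane protein podoplanin, were in 1 cell of ABL replicate 1 (613 against 101 and 150 against 36.6 CPM). All 4 *Mki67* UMIs of the osteoblasts were in 2 of the 5 cells of ABL replicate 1. *Alpl* was lower in both libraries (535 against 691 and 196 against 801 CPM), and so was *Car3* (802 against 1439 and 1001 against 1572 CPM). *Spp1* stood at 12063 against 2456 CPM in ABL replicate 1, where 1 cell held 596 of its 767 UMIs, and at 1611 against 4525 CPM in ABL replicate 2. Their osteocalcin share ran from 1.56 to 21.6% and from 1.02 to 8.01%, and tdTomato was seen in 5 of 5 and 2 of 5. Across single cells, *Dtna* (rho 0.41 and 0.50 with *Dmp1*) and *Phex* (0.23 and 0.63) had the highest mean rho, a ranking made after the values were seen.

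A second set of cells stood out in ABL replicate 2 only. There 10 of 43 osteoblasts had no UMI of *Ifitm5*, *Car3* or *Col22a1*, against 0 of 38 in ABL replicate 1, and they pass the rule on osteocalcin and collagen alone. They were chosen after the values were seen and are given with no test. Their median osteocalcin share was 2.20% (1.05 to 5.73%) against 5.04% in the other 33 cells, their median *Col1a1* share 2.40 against 11.8%, and their median depth 10516 against 18115 UMIs. tdTomato was seen in 9 of 10 and 27 of 33. *Dmp1* had 0 UMIs in them against 692 CPM in the others, and *Col1a2* stood at 19649 against 80337 CPM. In contrast *Postn* stood at 1160 against 70.4 CPM, *Tnn* (tenascin N, of periosteal bone) at 428 against 30.9, *Col3a1* at 13613 against 728, *Mmp13* at 7995 against 541 and *Comp* at 4126 against 728 CPM. Of the 122 *Postn* UMIs 66 were in 1 cell, and the other 9 cells stood at 584 CPM, or 384 without the 2 richest. *Sp7* (95.1 against 151), *Runx2* (114 against 117) and *Pth1r* (1046 against 799 CPM) differed less. *Ibsp* stood at 11635 against 10444 CPM, but 2 of the 10 cells held 863 of its 1224 UMIs and the other 8 stood at 4097 CPM. *Alpl* stood at 1454 against 593 CPM, with UMIs in 9 of the 10 cells. The 10 cells were not alike. *Postn* and *Tnn* had UMIs in the same 7 of them. The cells with neither held 565, 298 and 60 *Ibsp* UMIs and 40, 30 and 15 *Alpl* UMIs. Cells with *Postn* and *Tnn* held up to 117 *Ibsp* and up to 21 *Alpl* UMIs. The summed levels thus mix cells of different profiles. The label of osteoblast rests in these cells on the genes of the rule, and the 3 late markers were not detected in them. With only cells holding a marker UMI, the split at the median gave 0 higher and 13 lower genes and the comparison with other collagen-high cells 183 higher and 239 lower.

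**Figure D5:**
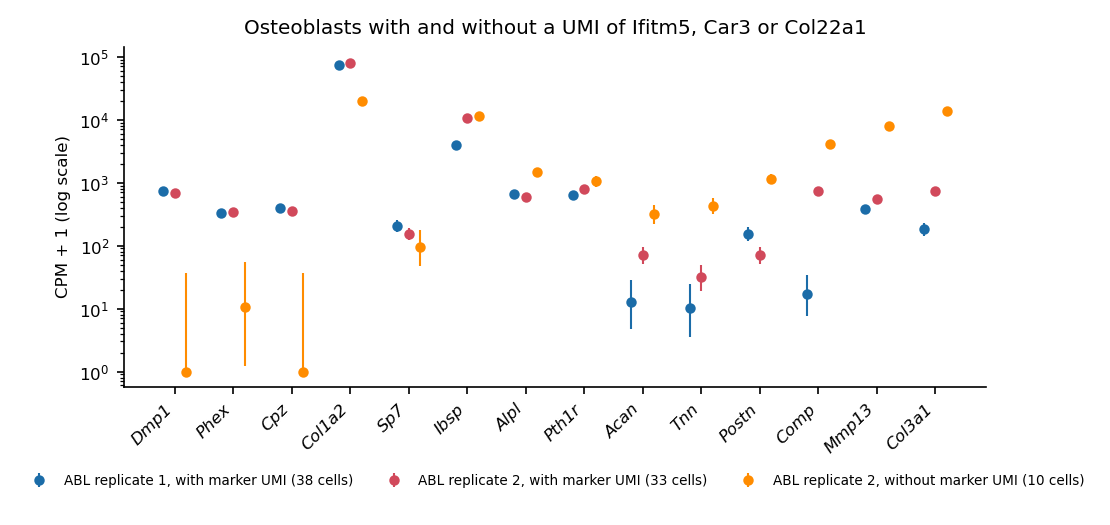
Summed level (CPM + 1, log scale) of 14 genes in osteoblasts with a UMI of *Ifitm5*, *Car3* or *Col22a1* in ABL replicate 1 (blue, 38 cells) and ABL replicate 2 (red, 33 cells), and in the 10 cells of ABL replicate 2 without one (orange); bars are exact Poisson 95% intervals. The 10 cells have *Postn* at 1160 CPM (584 without its richest cell) and *Dmp1* at 0, and 2 of them hold 863 of their 1224 *Ibsp* UMIs. *Postn* has UMIs in 7 of them.

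The osteocalcin copies were not recovered alike. *Bglap2* gave 46.6, 43.9, 49.7 and 50.1 UMIs per 100 *Bglap* UMIs. *Bglap3* gave 14.2 and 17.4 in replicate 1 but 2.60 and 2.46 in replicate 2, a difference between replicates and not between conditions. Since chemistry changed with the replicate and the copies share sequence, the split among them is uncertain.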

How the data were processed

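Counts are UMIs per gene and barcode in the deposited raw matrices, which the authors made with Cell Ranger on mm10 with transgene sequences added; Cell Ranger's version is not given in the sources used here. Seurat is named too in the submitters' processing notes. The 4 matrices held 28006 features, and no column of another sample was found.

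Cells had at least 500 genes, 2700 UMIs and at most 20% mitochondrial UMIs (replicate 1), or at least 1000 genes, 4000 UMIs and at most 15% (replicate 2). The gene and mitochondrial limits alone, which the study states, left 4809, 1768, 2478 and 2720 barcodes in the order used above. Scrublet in scanpy 1.11.5 marked 2.22, 1.18, 0.0417 and 0.551% of cells and no osteoblast; its calls were left in, and its share is too low in CONT replicate 2 for it to be relied on. The labels number the replicates, and the study states that replicate 1 was pooled from several mice.

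UMIs were summed per library and class and tested in edgeR 4.0.16 (R 4.3.3; TMM, filterByExpr, library block), with DESeq2 1.42.0 as an alternative. A test of ABL against CONT osteoblasts needed at least 5 cells in each library and could not be fitted, since CONT replicate 2 had 1. Scripts were tested on simulated data. Intervals are exact Poisson for CPM and exact binomial (Clopper-Pearson) for shares, at 95%, and a count of 0 was bounded at 3 counts. Spearman correlations used genes with a UMI in at least 20% of osteoblasts of each ABL library. Of 349 listed genes, 346 were in the files.

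Named genes came from the lists, from the largest changes of each fit or from the 10 highest Spearman correlations with osteocalcin. The largest changes were the 10 largest rises and 5 largest falls at an adjusted p of 0.05. They also needed the same sign in both libraries and at least 100 CPM. *Mmp13* and *Serpine2* came from none of these and were chosen later, among the genes that DESeq2 called along osteocalcin. Others are marked as chosen later. The osteoblasts, the gene lists and the tests were chosen with earlier results of these data known. RefSeq promoter entries were matched by symbol, and no entry was found for *Bglap2*, *Car3*, *Col22a1* or *Sp7*.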

Additional observations from a re-analysis of the deposited data

How the results depend on the processing

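Counts are higher, then lower in osteoblasts, against *Wif1*-positive, reticular and other collagen-high cells and then between osteoblasts above and below the median osteocalcin share. Without TMM scaling they were 152 and 784, 433 and 2767, 196 and 1068, and 9 and 206. DESeq2 gave 141 and 115, 721 and 554, 180 and 180, and 0 and 8 (50 genes along osteocalcin had an unadjusted p under 0.05), and every gene of the main calls kept its sign there (561, 1834, 701 and 111). Without a filter on low counts 542 were lower than in *Wif1*-positive and 683 lower than in other collagen-high cells, and 13 rose along osteocalcin. With an osteocalcin minimum of 2% the counts were 99 and 95 against *Wif1*-positive cells and 0 and 2 along osteocalcin, and with 0.5% they were 5 and 30 along osteocalcin. Only cells with a tdTomato UMI gave 7 and 42 along osteocalcin, and the study's cell filter alone gave 0 and 5. Leaving out Scrublet doublets changed no count against *Wif1*-positive or other collagen-high cells or along osteocalcin.

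The replicate number and the library are the same block here, since both classes of a comparison come from 1 library. With no replicate block, 0 and 0 were called against *Wif1*-positive cells, 407 and 484 against reticular cells, 0 and 0 against other collagen-high cells and 0 and 0 along osteocalcin (652, 2220, 747 and 115 genes at an unadjusted p under 0.05).

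These alternatives were chosen after seeing the data. Only osteoblasts with a UMI of *Ifitm5*, *Car3* or *Col22a1* gave 259 and 264, 1008 and 1283, 183 and 239, and 0 and 13 along osteocalcin (208 genes at an unadjusted p under 0.05). All 4 classes in 1 fit gave 109 and 69, 657 lower against reticular cells, and 187 and 156. In that fit, without the osteoblasts of 1 ABL replicate, where the lone sum is taken to vary like the other classes, the counts ranged from 0 to 9 and 0 to 2 against *Wif1*-positive cells, 137 to 143 and 112 to 147 against reticular cells, and 1 to 25 and 0 to 11 against other collagen-high cells.

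The share of osteoblasts kept its direction under every alternative tried. Among cells with no *Ptprc* UMI it was 4.0% in ABL replicate 1 and the mean difference was 2.88 points. In ABL replicate 2 it was 2.48% at a minimum of 0.5% and 1.18% at 2%, and in ABL replicate 1 it was 3.80% among cells with a tdTomato UMI. Without 1 replicate the difference ranged from 1.65 to 2.41 points.

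Of 1333 tested values of named genes under these settings 937 kept their sign and their side of the threshold, 390 kept their sign but lost the call and 6 changed sign. Without 1 replicate there was no test between classes. Of those 216 values, only the ones of genes called in the main fit were checked for sign, and 1 reversed. Against *Wif1*-positive cells *Alpl* turned to -0.082 and *Runx2* to -0.027 without TMM, and *Alpl* to -0.31 and *Ibsp* to -0.11 without the osteoblasts of ABL replicate 2. Along osteocalcin *Pdpn* turned to 0.29 and *Phex* to 0.22 with the study's filter alone, and *Spp1* ranged from -1.72 to 0.42 without 1 replicate, positive without replicate 1. The cause was not tested. The genes that DESeq2 did not call include *Lepr*, *Tnfsf11*, *Lrp5*, *Tcf7*, *Bmp8a*, *Bmp4*, *Bmp1*, *Bmp2*, *Tgfb1* and *Enpp1* against *Wif1*-positive cells. They also include *Top2a* and *Tnc* against other collagen-high cells. Along osteocalcin they include *Thbs1*, *Car3*, *Cpz*, *Sparc*, *Serpinf1*, *Dmp1*, *Phex* and *Spp1*. No fit of ABL against CONT osteoblasts could be made under any setting. With 38 and 43 osteoblasts, genes under about 7 and 4 CPM rest on 3 counts or fewer.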
